A study of Homo sapiens with 3 samples.

Results

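HOX genes encode homeodomain transcription factors that give cells their position along the head-to-tail axis of the embryo. They lie in 4 clusters, HOXA, HOXB, HOXC and HOXD, and each cluster keeps its genes in the order of 13 paralog groups, so that low group numbers act towards the head and high numbers towards the tail and the ends of the limbs. Antisense and intergenic RNAs run between the coding genes on the opposite strand. HOTAIR from the HOXC cluster is known for its link to the Polycomb repressor, and HOTTIP and HOTAIRM1 arise at the 2 ends of the HOXA cluster. In kidney development the paralogs of group 11 are required for the ureteric bud to form.

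Gene symbols were chosen by name from the deposited count tables: those that begin with HOXA, HOXB, HOXC or HOXD followed by a digit or a hyphen, together with HOTAIR, HOTTIP and HOTAIRM1. This gave 54 of 26485 gene names, of which 39 were protein-coding HOX genes, 14 were antisense or other non-coding RNAs and 1 was the HOXA10-HOXA9 read-through. HOTAIR was placed with HOXC, and HOTTIP and HOTAIRM1 with HOXA. The samples were 3 RNA sequencing libraries of HEK293, an established line derived from human embryonic kidney and transformed with adenovirus DNA, grown in DMEM with 10% fetal calf serum, and they formed a single group (n = 3) with no treatment and no contrast. Whether they were grown as separate cultures is not stated, so all spreads and p-values describe these 3 libraries and may be technical. Few records were assigned to genes: the gene-assigned totals were 289241 to 483114 counts, beside 15046765 to 20436963 records per library that fell on no feature (91.2% of records on average). Genes that nearly every cell uses were also close to 0 in these tables: ACTB had 1, 0 and 1 counts, ACTG1 had 7, 0 and 2, GAPDH had 16, 3 and 4, and ACTN4 and AHCY had none (these 5 were picked after their values were seen). A name listed at 0 is therefore not shown to be silent in the cells, here and for every 0 below. By counting error alone, a name with no count could still lie below 3 counts, which equalled 6.86, 6.92 and 9.89 CPM (counts per 1e6 of TMM-scaled library size) in replicates 1, 2 and 3. Of 10 factors of kidney development, 4 had a count and the defining factors PAX2, SIX2 and LHX1 had none, with a summed level of 4.61 to 9.89 CPM; EYA1 led with 2, 1 and 2 counts and WT1 had 2, 0 and 0. The neuronal list had 5 of 8 with a count (110 to 138 CPM summed), led by SYT1 at 30, 41 and 19 and NEFL at 16, 12 and 22, while NES, STMN2 and TUBB3 were at 0. The blood and endothelial list had 2 of 8 with a count (3.30 to 11.4 CPM summed), PECAM1 at 5, 3 and 0 and GATA1 at 0, 0 and 1, while PTPRC, CD34 and CDH5 were at 0.

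No source used here states which strand setting the read counter was run with, and whether it matched the strand-preserving kit was not tested. A count under an antisense name and a count under the coding gene opposite to it can therefore not be told apart as measures of either transcript, and all values below are counts under a name. Coordinates and exons are those of GENCODE release 29 on GRCh38, which matched 53 of the 54 names.

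The sequences below show where names on the 2 strands share DNA and where HOX genes share sequence with each other. The highest count of any member fell to HOXA10-AS, whose exon lies opposite the hairpin of MIR196B, so the first line gives that stretch on the HOXA10-AS strand (chr7:27169480-27169563, plus strand, GRCh38) with the complement of the mature miRNA in capitals. The mature miR-196b-5p and its relative miR-196a-5p, from RefSeq on GRCh38.p14, follow with the seed in capitals (bases 2 to 8, the same in both). These miRNAs are known to target HOX transcripts.
HOXA10-AS: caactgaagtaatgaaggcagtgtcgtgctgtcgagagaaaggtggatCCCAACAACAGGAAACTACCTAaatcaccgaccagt
miR-196b-5p: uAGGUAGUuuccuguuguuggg
miR-196a-5p: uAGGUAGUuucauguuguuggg

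HOXB-AS3, the member with the smallest adjusted p in the test of variation between libraries, runs opposite 139 coding bases of HOXB6 (chr17:48596439-48596577, plus strand). The capitals mark a run of 20 bases that HOXB6 shares with HOXA6.
HOXB-AS3: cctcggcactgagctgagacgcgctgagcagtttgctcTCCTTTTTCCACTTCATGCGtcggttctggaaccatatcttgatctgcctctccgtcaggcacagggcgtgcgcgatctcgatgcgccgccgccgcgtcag

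Sequence shared between paralogs could bear on the counts, because a read that aligns in 2 places is set aside by the counter in its usual mode. Over 42 pairs of the same paralog group in different clusters, the longest identical coding run had a median of 18 bases and a maximum of 62. Over 527 pairs of different groups the median was 14 and the maximum 40. No source used here gives the read length, so whether any reads were lost in such runs was not tested.

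Most members received counts, but few received many. At least 1 count in any library was found for 45 of the 54 names, against 54.7% of all names, and a count in every library for 35 of the 54, against 29.2% of all names. In 10 of the 54 every library held 10 counts or more, against 9.68% of all names. The members were not drawn at random from the names, so these shares are a description. The 45 members with a count had a median of 12.7 CPM, beside 7.89 CPM over all 14482 names with a count. The 9 names with no count in any library were HOTTIP, HOXA10-HOXA9, HOXB1, HOXB4, HOXC12, HOXC13, HOXD1, HOXD4 and HOXD10.

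The HOXA cluster held most of the counts, the HOXB cluster came next, and HOXC and HOXD were low. All 54 names together received 1219, 916 and 866 counts in replicates 1, 2 and 3, or 0.262% ± 0.0624 (SD, n = 3) of gene-assigned counts. The 18 HOXA names received 729, 583 and 596 counts, which is 64.1% ± 4.53 (SD, n = 3) of the HOX total. The 12 HOXB names received 363, 233 and 198 counts, or 26.0% ± 3.50 (SD, n = 3). HOXA stood above HOXB and HOXB above both other clusters in all 3 libraries. Single names held much of these sums: HOXA10-AS received 396, 299 and 340 of the HOXA counts, and HOXB-AS3 218, 92 and 104 of the HOXB counts. Apart from HOXA10-AS, the HOXA names together received fewer counts than the HOXB names in replicate 1 and more in replicates 2 and 3.
The 14 HOXC names received 55, 56 and 38 counts, with exact 95% Poisson intervals of 41.4 to 71.6, 42.3 to 72.7 and 26.9 to 52.2. The 10 HOXD names received 72, 44 and 34, with intervals of 56.3 to 90.7, 32.0 to 59.1 and 23.6 to 47.5. HOXD was the higher of the pair in replicate 1 and HOXC in replicates 2 and 3, and their intervals overlapped in each library, so no order between them could be read. These intervals cover counting error alone.
With the exon length taken into account, the summed levels were 31.2 ± 5.83 CPM per kb in HOXA, 19.9 ± 4.37 in HOXB, 5.92 ± 1.59 in HOXD and 3.81 ± 0.0629 in HOXC (SD, n = 3 each). On this scale HOXD exceeded HOXC in all 3 libraries, which reverses their order by counts in replicates 2 and 3. No intervals were computed per kb, so this order is given without its counting error. The small SD of HOXC depended on the scaling: its summed CPM had an SD of 2.09 here and of 9.59 per total gene-assigned counts. An exact sign-flip permutation test over 3 libraries cannot give a two-sided p below 0.25, so no cluster was tested against another.

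**Figure D1:**
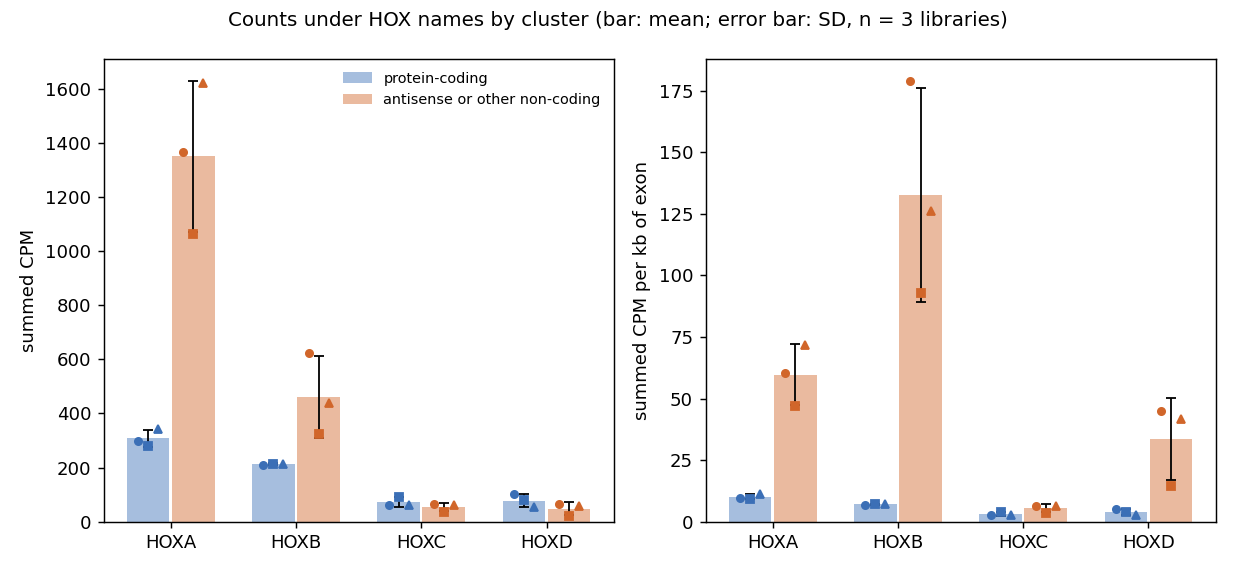
Summed CPM (left) and summed CPM per kb of merged exon (right) of the coding and the non-coding names of each HOX cluster; bars are means, error bars the SD over 3 libraries, and circle, square and triangle are replicates 1, 2 and 3. The non-coding names exceed the coding names in HOXA and HOXB on both scales, and in HOXC and HOXD the means of the coding names are the higher on the left and the lower on the right. On the right the non-coding names of HOXB stand above those of HOXA.

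Antisense and other non-coding names took the larger share of the HOX counts. The 14 non-coding names received 926, 626 and 662 counts in replicates 1, 2 and 3, which is 2117, 1443 and 2182 CPM, against 670, 669 and 672 CPM for the 39 coding names. Their share was 76.0% (95% Wilson interval 73.5 to 78.3), 68.3% (65.3 to 71.3) and 76.4% (73.5 to 79.2) in the same order, so replicate 2 had the lowest share and its interval did not overlap the other two. Per kilobase of exon the non-coding names stood at 51.1 ± 10.9 CPM and the coding names at 6.44 ± 0.0191 CPM (SD, n = 3 each). The near-equal sums of the coding names depended on the scaling: per total gene-assigned counts their SD was 62.4 CPM, against 1.99 CPM here. In bulk RNA, fewer cells with a transcript and less of it per cell cannot be told apart. By cluster, the non-coding names had 1350 ± 280 CPM in HOXA and 461 ± 151 in HOXB against 308 ± 31.6 and 212 ± 3.63 for the coding names, whereas in HOXC they had 54.5 ± 15.3 against 72.2 ± 17.3 and in HOXD 48.0 ± 23.7 against 78.0 ± 24.0 (SD, n = 3 each). In HOXC and HOXD the difference of the means was about the size of these spreads.

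HOXA10-AS, an antisense RNA that overlaps HOXA9 and HOXA10 (chr7:27168619-27171915, plus strand), was the highest member in every library. It received 396, 299 and 340 counts, or 34.8% ± 3.87 (SD, n = 3) of all HOX counts, at 547 ± 130 CPM per kb. Its exons share 422 bases with HOXA9 and 608 with HOXA10 on the other strand. HOXA10, a group 10 gene needed for uterine and limb patterning, received 44, 40 and 51 counts, and HOXA9, a group 9 gene known for its part in acute leukaemia, received 0, 0 and 6. Opposite the same antisense RNA, MIR196B received 5, 2 and 3. HOXA9 thus had counts in replicate 3 alone, where HOXA10 and HOXA10-AS were also highest by CPM. Exons of HOXA9, HOXA10 and the read-through lie on 1 strand, and a counter in its usual mode drops reads that touch exons of more than 1 such gene. Records set aside as ambiguous were 0.0184% of all records on average, and whether any fell on HOXA9 was not tested.

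HOXA-AS3 (chr7:27129977-27155928, plus strand) was the next HOXA name, with 136, 114 and 106 counts and 51.6 ± 7.27 CPM per kb. It lies opposite exons of HOXA3, HOXA4, HOXA6 and HOXA7, and 1507 of its exon bases face HOXA7. HOXA7 itself received 12, 12 and 5 counts, HOXA3 received 5, 8 and 3, HOXA4 received 4, 4 and 5, and HOXA6 received 1, 2 and 2. Together these 4 genes had 22, 26 and 15 counts, below HOXA-AS3 in each library. HOXA-AS2 (chr7:27107777-27134302, plus strand), opposite exons of HOXA3 and HOXA4, received 39, 28 and 26 counts. By CPM, HOXA-AS2 stood at 89.2, 64.5 and 85.7.

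Among the HOXA coding genes, HOXA5 and HOXA2 had no named gene opposite their exons and still received counts in every library. HOXA5, a group 5 gene with roles in lung and skeleton, had 21, 18 and 8 counts, or 22.6 ± 6.50 CPM per kb. HOXA2, which patterns the hindbrain and the middle ear, had 19, 27 and 9, or 18.4 ± 6.65 CPM per kb. HOXA10 stood at 32.5 ± 11.2 CPM per kb, HOXA11 at 15.8 ± 7.89 and HOXA7 at 9.90 ± 2.65 (SD, n = 3 each). HOXA13, the most posterior gene of the cluster, had 1, 2 and 4 counts. The non-coding names at the 2 ends were also low, with HOTAIRM1 at 1, 8 and 2 counts and HOTTIP, opposite HOXA13, at none.

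HOXA11 and HOXA11-AS received similar counts. HOXA11 (chr7:27181510-27185223, minus strand), a group 11 gene of kidney and limb development, had 24, 8 and 11, and HOXA11-AS (chr7:27184507-27189298, plus strand) had 26, 12 and 18. Both were lowest in replicate 2, as were 7 of the 10 members tested for variation between libraries. The same share over all names tested was not computed. HOXA11, with 8 counts in that library, was not tested, and HOXA11-AS did not pass (adjusted p = 0.0849, edgeR). By CPM per kb the means were 15.8 ± 7.89 and 15.6 ± 5.86 (SD, n = 3 each). In GENCODE the exons of the pair share 717 bases, 706 of them coding in HOXA11. Their RefSeq starts lie head to head with 175 bases between them, which are printed here (chr7:27185233-27185407, GRCh38.p14, plus strand, the 5 CpG in capitals). Whether these bases drive both names was not tested.
HOXA11 to HOXA11-AS: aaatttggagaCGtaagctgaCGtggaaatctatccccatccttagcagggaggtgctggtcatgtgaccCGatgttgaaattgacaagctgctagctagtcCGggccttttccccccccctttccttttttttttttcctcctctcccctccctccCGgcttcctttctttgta
RefSeq promoter windows, 250 bases before to 50 after a start, were at hand for 28 members (35 windows). They held a median of 15 CpG (0 to 44), beside 14 over 35116 windows of all genes.

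In the HOXB cluster HOXB-AS3 led, with 218, 92 and 104 counts at 184 ± 74.9 CPM per kb. It is an antisense RNA of chr17:48549630-48606414, plus strand, reported to encode a short peptide, and its exons face HOXB3, HOXB5 and HOXB6. Replicate 1 was high and replicate 2 low. HOXB-AS1 (chr17:48543551-48551250, plus strand), opposite HOXB2 and HOXB3, received 54, 48 and 29 counts, or 123, 111 and 95.6 CPM. HOXB5, at 38, 22 and 16 counts, was the highest coding gene of the cluster per kilobase (31.1 ± 9.95 CPM per kb), ahead of HOXB3 at 10.6 ± 1.79, which had 28, 39 and 25 counts over a longer exon length. HOXB6 had 5, 12 and 9 counts. HOXB7 had 4, 9 and 1, HOXB2 had 4, 1 and 7, HOXB8 had 4, 3 and 1, and HOXB9 had 5, 2 and 0. HOXB13, which lies far from the other genes of the cluster and is known from prostate, had 3, 5 and 6. HOXB1 and HOXB4 had none.

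No HOXC name reached 10 counts in every library. HOXC10 had 11, 7 and 6 counts (20.4 ± 4.53 CPM) and HOXC-AS1, whose exons face no named gene, had 5, 3 and 10 (17.1 ± 13.9 CPM, SD, n = 3 each). HOXC-AS2, opposite HOXC6 and HOXC9, had 10, 8 and 1 and HOXC13-AS had 9, 2 and 5, while HOXC13, which faces the latter, had none. HOXC5 had 6, 3 and 6, HOXC11 had 3, 6 and 3, HOXC4 had 5, 4 and 1, and HOXC9 had 2, 6 and 2. HOXC6 and HOXC8 had most or all of their counts in replicate 2, at 0, 8 and 0 and at 0, 6 and 1. HOXC-AS3, opposite HOXC10, had 2, 3 and 3. HOTAIR had 2, 0 and 0, so it was at or below the level of 3 counts in each library.

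HOXD counts were concentrated in a pair of names near the middle of the cluster. HOXD8 (chr2:176129694-176132695, plus strand), which has no named gene opposite its exons, had 30, 29 and 12 counts, or 22.2 ± 6.19 CPM per kb. HOXD-AS2 (chr2:176121611-176137098, minus strand), whose exons face HOXD3, had 28, 9 and 18, or 33.6 ± 16.6 CPM per kb (SD, n = 3 each). HOXD3 received 2, 0 and 0. HOXD13, a limb and genital patterning gene, had 7, 4 and 2, HOXD9 had 4, 2 and 0, HOXD11 had 0, 0 and 2, and HOXD12 had 1, 0 and 0. HAGLR, an antisense RNA of this cluster whose symbol falls outside the naming rule, had 8, 7 and 5 counts, and its exons face HOXD1, which had none, and HOXD3.

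**Figure D2:**
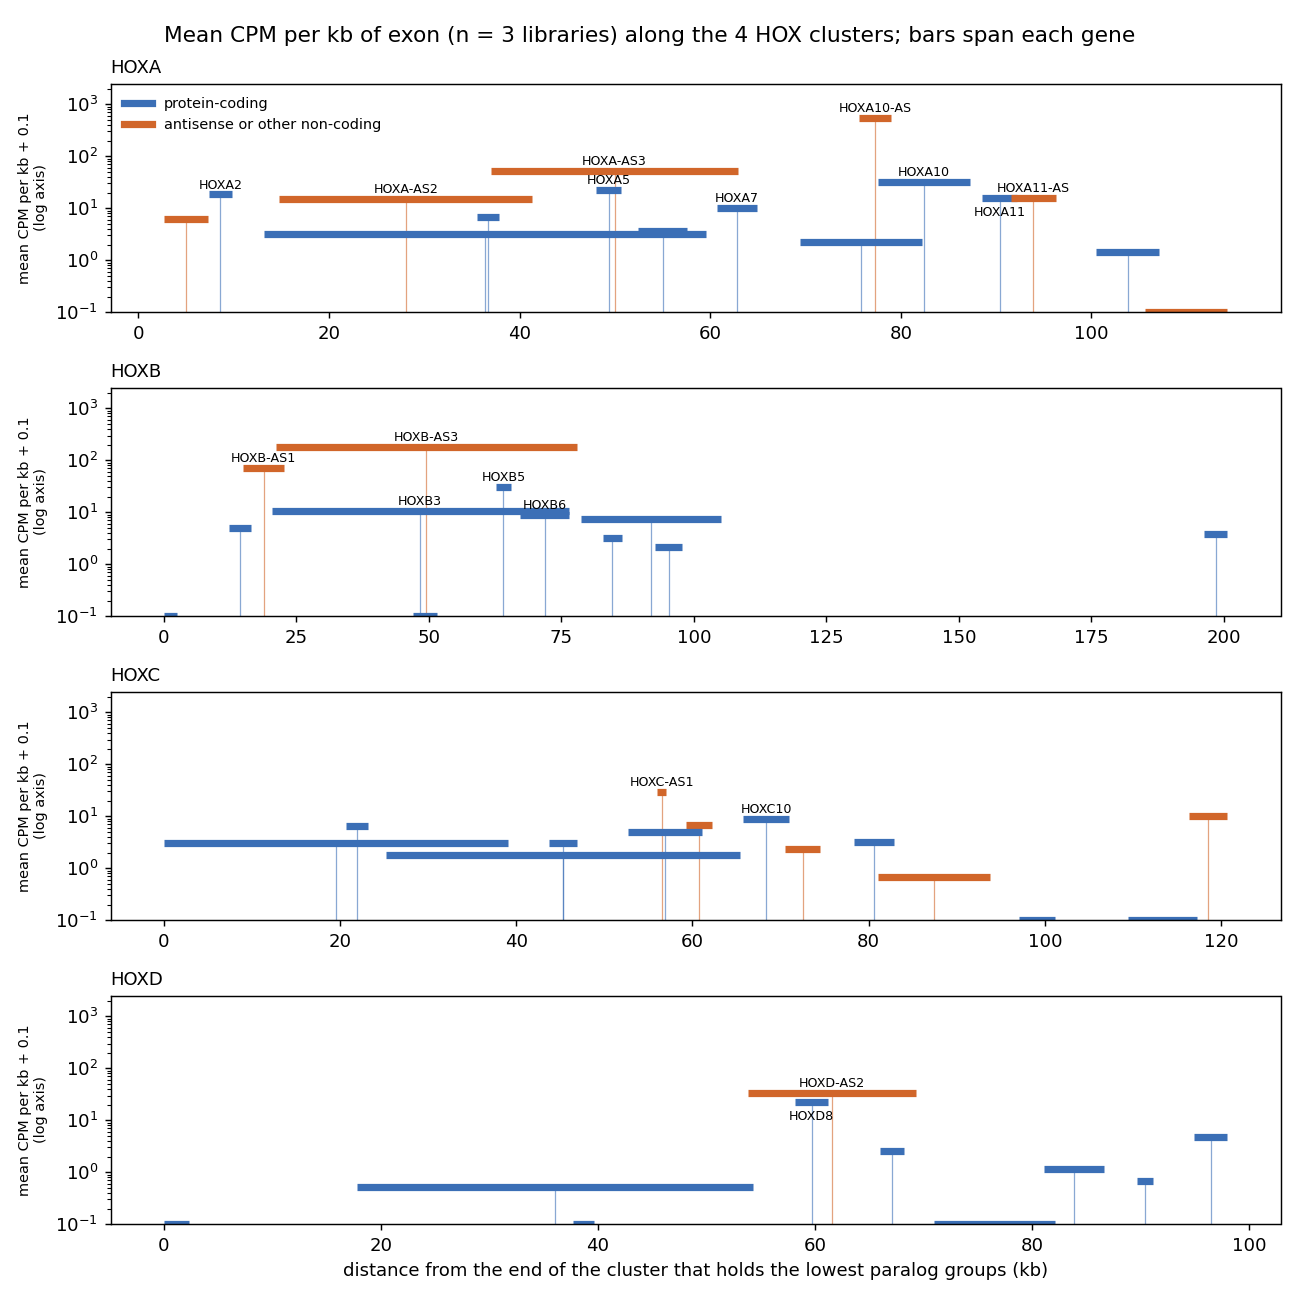
Mean CPM per kb of exon plus 0.1 (log axis, n = 3 libraries) for 52 of the 53 matched members, drawn as a bar over the span of the gene against the distance in kb from the end of the cluster that holds the lowest paralog groups. HOXA10-AS at 547 CPM per kb is the tallest, and names with no count lie on the bottom axis, among them HOXB1, HOXD1 and HOTTIP at the ends of their clusters.

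**Figure D3:**
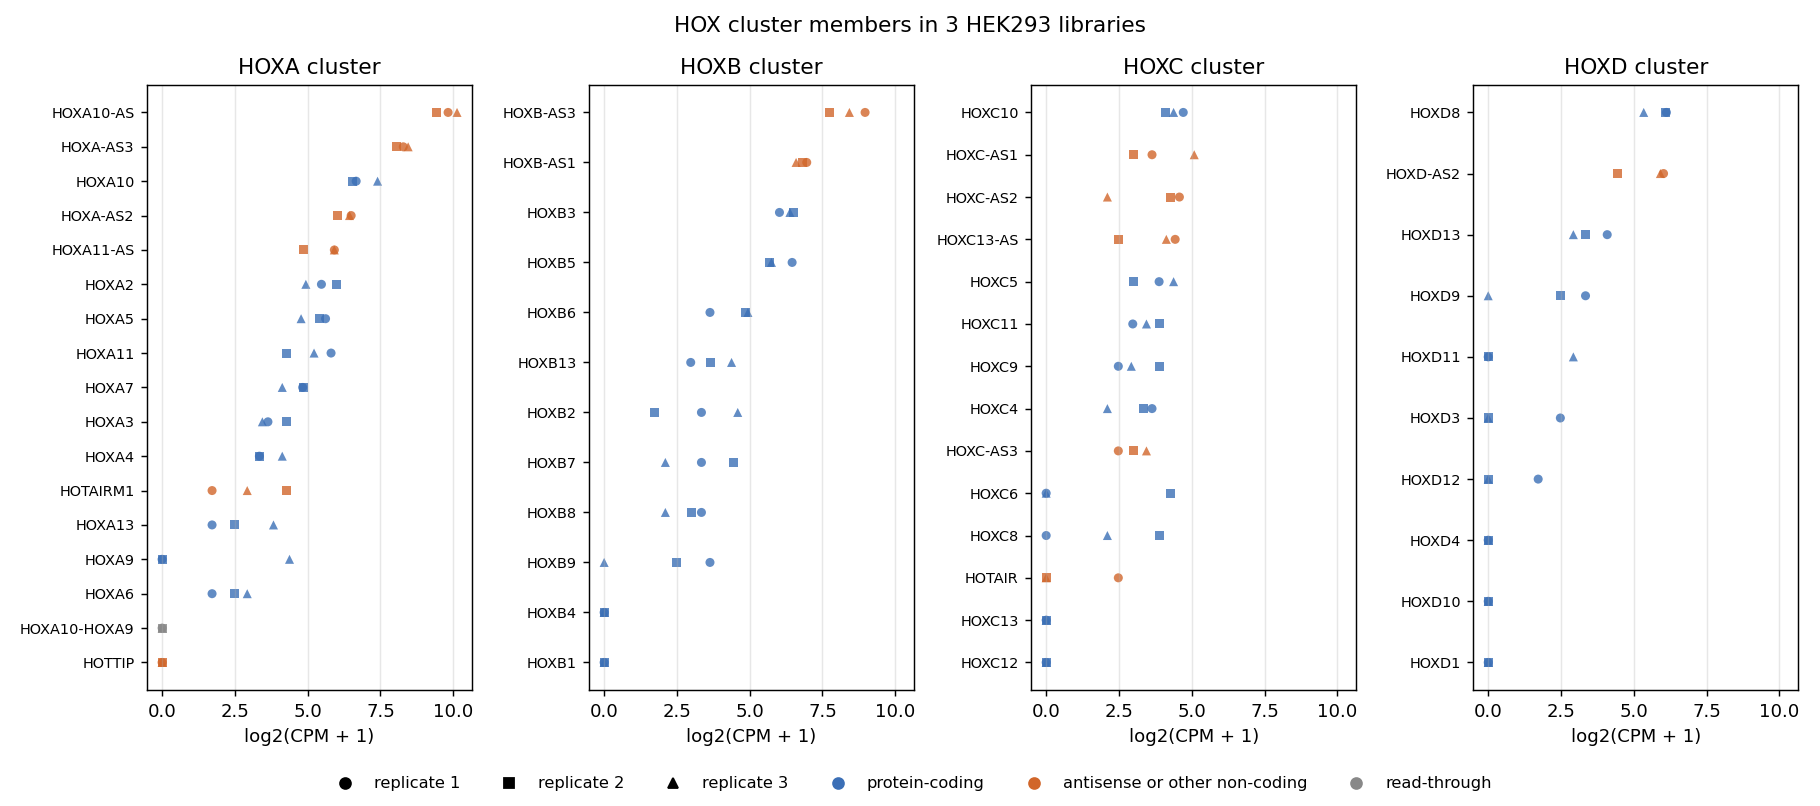
log2(CPM + 1) of 53 of the 54 members in each library, by cluster and in order of mean CPM; blue marks coding genes, orange non-coding names and grey the read-through, and circle, square and triangle are replicates 1, 2 and 3. HOXA9 and HOXC6 show counts in 1 library each, and the 9 names without a count sit at 0.

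Coding counts were also summed by position in the paralog order. The 11 coding genes of groups 5 to 8 had 121, 124 and 61 counts, or 10.7 ± 1.95 CPM per kb. The 16 genes of groups 9 to 13 had 105, 82 and 93, or 5.64 ± 1.36 CPM per kb, and the 12 genes of groups 1 to 4 had 67, 84 and 50, or 4.64 ± 0.566 CPM per kb (SD, n = 3 each). Single groups did not follow these blocks. In the middle block, group 5 stood at 19.7 ± 4.89 CPM per kb, group 8 at 10.7 ± 3.30, group 7 at 8.87 ± 3.65 and group 6 at 4.52 ± 2.51, while outside it group 10 stood at 16.1 ± 4.79 and group 2 at 11.8 ± 1.43 (SD, n = 3 each). Group 5 exceeded group 10 in replicates 1 and 2, at 25.4 and 16.9 against 14.4 and 12.4 CPM per kb, and was below it in replicate 3, at 16.9 against 21.5, so no order between them could be read. Group 12 had 1 count over all libraries. In group 10 the counts lay with HOXA10, since HOXC10 had 11, 7 and 6 and HOXD10 none. In group 8 they lay with HOXD8 at 30, 29 and 12 against 4, 3 and 1 for HOXB8 and 0, 6 and 1 for HOXC8. Group 9, the only group besides 4 and 13 with a gene in all 4 clusters, had 11, 10 and 8 counts over HOXA9, HOXB9, HOXC9 and HOXD9 together.

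Antisense names lay above the coding genes opposite to them at most loci. Of the 14 non-coding names, 12 had exons opposite a coding HOX gene, and 9 of these 12 exceeded the opposite genes per kilobase of exon in all 3 libraries. The share over antisense names outside the clusters was not computed, so this is not shown to be particular to HOX loci. For example, ADPGK-AS1 had 255, 205 and 157 counts against 5, 13 and 3 for ADPGK. In the other direction, AGAP2-AS1 had 11, 4 and 2 against 117, 55 and 107 for AGAP2. These examples were picked after their values were seen. HOXA10-AS stood at 547, 417 and 678 CPM per kb against 14.9, 13.7 and 27.9 for HOXA9 and HOXA10 combined. HOXB-AS3 stood at 261, 111 and 179 against 13.4, 13.9 and 13.6 for HOXB3, HOXB5 and HOXB6. HOXD-AS2 stood at 44.8, 14.5 and 41.5 against 1.29 in replicate 1 and 0 in the others for HOXD3. The exceptions were HOTTIP, which had no count opposite HOXA13, HOXC-AS3, which was below HOXC10 in all 3 libraries, and HOXA11-AS, which was below HOXA11 in replicate 1. HOXB3 is opposite both HOXB-AS1 and HOXB-AS3, and HOXA3 and HOXA4 both HOXA-AS2 and HOXA-AS3, so these loci are not independent. HOXC-AS2 and HOXC13-AS, among the 9, had at most 10 counts in a library, and HOXC-AS2 led in replicate 3 with 1 count.
The 19 coding genes with a named gene opposite their exons had 181, 172 and 152 counts, or 7.76 ± 0.994 CPM per kb. The 20 without one had 112, 118 and 52, or 4.89 ± 1.13 CPM per kb (SD, n = 3 each). Whether reads of one strand were counted under names of the other was not tested.

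**Figure D4:**
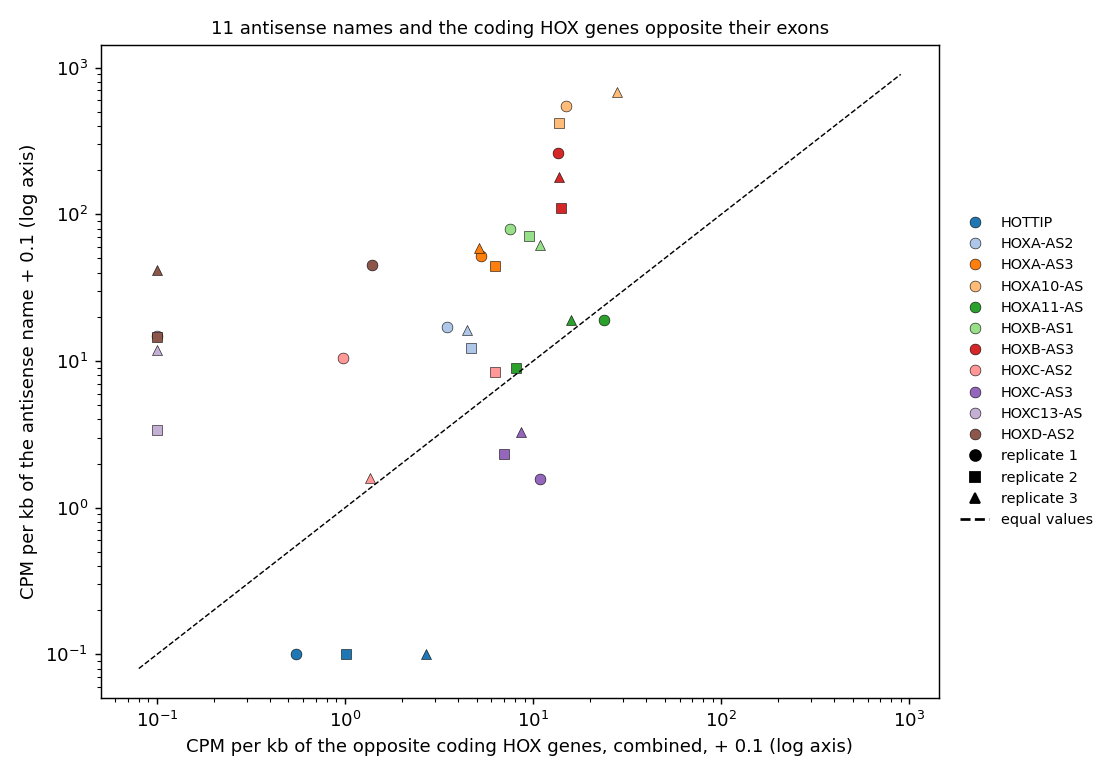
CPM per kb of exon plus 0.1 (both axes logarithmic) of 11 of the 12 antisense names against the coding HOX genes opposite their exons, combined; each name has 1 colour, circle, square and triangle are replicates 1, 2 and 3, and some points coincide at the left edge. HOXA10-AS and HOXB-AS3 lie highest above the dashed line of equal values, and HOTTIP and HOXC-AS3 lie below it.

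Differences between the replicates were tested for all names with at least 10 counts in every library, by edgeR's Poisson fit with Benjamini-Hochberg adjustment. This asks whether a name varied by more than counting noise. Of 2564 names tested, 1175 had an adjusted p under 0.05, or 45.8%. Among the 10 HOX names tested, 6 were antisense and 4 coding, and 3 of the 10 passed: HOXB-AS3, HOXA10-AS and HOXA10. No direction against the background is read from 10 names, since other settings put the members' share above it. The median coefficient of variation of the 10 was 25.9%, beside 26.0% over all 2564 names.

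HOXB-AS3 stood at 498 CPM in replicate 1, 212 in replicate 2 and 343 in replicate 3 (351 ± 143, SD; adjusted p = 1.15e-10, edgeR). HOXA10-AS stood at 905, 689 and 1121 CPM (905 ± 216, SD; adjusted p = 6.90e-08, edgeR). HOXA10 stood at 101, 92.2 and 168 CPM (120 ± 41.6, SD; adjusted p = 0.0231, edgeR), with replicate 3 above the other two. All 3 were lowest in replicate 2, but so were 7 of the 10 tested members, whether they passed or not. Of all 2564 names tested, 1175 passed, and 435 (17.0% of those tested) passed and were lowest in replicate 2. That share belongs beside the 3 of 10 members that passed and were lowest there, not beside the 7 of 10. The share of all tested names lowest in replicate 2, passing or not, was not computed. The high library differed: replicate 1 for HOXB-AS3 and replicate 3 for the HOXA pair. The call for HOXA10 was lost without replicate 3 (adjusted p = 0.956, edgeR) and without replicate 2 (adjusted p = 0.0937, edgeR). It held without replicate 1 (adjusted p = 0.0181, edgeR).
The other 7 tested names did not pass. Adjusted p values (edgeR) were 0.0849 for HOXA11-AS at 59.4, 27.7 and 59.3 CPM, 0.135 for HOXB5 at 86.9, 50.7 and 52.7 CPM and 0.168 for HOXA-AS3 at 311, 263 and 349 CPM. HOXD8, HOXB3, HOXA-AS2 and HOXB-AS1 had adjusted p values of 0.285, 0.469, 0.479 and 0.614 (edgeR). A p above the threshold with so few counts does not show that the libraries were equal for these names. Scaling per total gene-assigned counts moves the library size of replicate 2 by 0.16 and those of replicates 1 and 3 by -0.09 and -0.07 (log2). CPM of replicate 2 is therefore lower on this scale, and CPM of replicates 1 and 3 higher. HOXA-AS3, HOXA11-AS and HOXB5 also passed with this scaling, with adjusted p values of 0.00669, 0.0221 and 0.0457 (edgeR).

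Genes that act with or on HOX clusters were read from lists of known regulators. The TALE homeodomain proteins bind DNA together with HOX proteins, and 5 of 9 of their names had a count but 1, MEIS2, had one in every library, at 5, 2 and 8. PKNOX1 followed with 3, 2 and 0, and PBX2, PBX4 and MEIS3 had none. Their summed level was 13.8 to 29.7 CPM, below that of any HOX cluster in each library, although these lists differ in exon length.
Polycomb repressive complexes keep HOX genes silent where they are not used. Of 11 names of complex 2, 8 had a count and 3 had one in every library. RBBP4, a histone-binding subunit shared with other complexes, led with 63, 68 and 34 counts (adjusted p = 0.353, edgeR) ahead of JARID2 with 5, 15 and 3, while the methyltransferase EZH2, named for its role after its values were seen, had 0, 3 and 1, and SUZ12 had none. Of 17 names of complex 1, 11 had a count, 4 were tested and 3 varied. PHC1 received 786, 811 and 656 counts (adjusted p = 0.00505, edgeR), PCGF3 199, 282 and 197 (adjusted p = 0.000441, edgeR) and KDM2B 32, 58 and 48 (adjusted p = 0.00456, edgeR).
MLL complexes maintain active HOX genes. Of 12 names, 11 had a count, and of the 2 tested neither passed: PSIP1, a chromatin tether of MLL, had 170, 201 and 106 counts and DOT1L, a histone H3 methyltransferase, had 13, 13 and 14. Among 16 upstream regulators 6 had a count, led by GDF11, a ligand of axial patterning, with 74, 62 and 43, and by the retinoic acid receptor gene RARB with 21, 42 and 31 (adjusted p = 0.0209, edgeR), which was the 1 that passed of 2 tested.

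The genes beside the clusters were mostly low. Beside HOXA, 3 of 5 had a count, led by TAX1BP1 at 8, 17 and 10 and SKAP2 at 4, 4 and 1, and EVX1 and EVX1-AS had none. Beside HOXB, 3 of 7 had a count, led by the chromatin protein gene CBX1 at 25, 30 and 24 and by CALCOCO2 at 3, 3 and 1. Beside HOXC, 4 of 5 had a count, led by the RNA-binding protein gene HNRNPA1 at 32, 32 and 21 and by CBX5 at 15, 10 and 4. All 5 names listed with HOXD had a count in some library, led by KIAA1715 at 15, 31 and 18 and by HAGLR. HAGLR is not a flanking gene, since its exons face HOXD1 and HOXD3 inside the cluster. The 3 of these names that were tested beside HOXB, HOXC and HOXD did not pass. Of 6 microRNA genes inside the clusters, MIR196B alone had a count. Other homeobox genes outside the clusters had a count in 6 of 10 cases, led by GBX2 at 12, 12 and 11 and EN1 at 2, 5 and 11.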

How the data were processed

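The authors deposited raw whole-number counts per gene symbol, 1 table for each of 3 HEK293 libraries. Per the labels' protocols, ribosomal RNA was removed from total RNA and a strand-preserving kit was used, while the titles call the libraries mRNA sequencing. Per the submitters' processing notes, Trimmomatic, TopHat2 (given as 2.2.5), HTSeq 0.11.2 and hg38 were used; annotation and strand option are not stated in any source used here. The summary lines (no feature 91.2%, not unique 6.77%, ambiguous 0.0184% of records, means) were left out. CPM per TMM effective library size came from edgeR 4.0.16 in R 4.3.3. Variation was tested with edgeR's Poisson fit (dispersion 0, intercept alone) over all names with at least 10 counts in every library, by deviance, with Benjamini-Hochberg adjustment and a threshold of 0.05; the fit was tested on simulated data. Exons were merged per gene from GENCODE 29. Intervals used scipy 1.17.1 and cover counting error alone. Alternatives were DESeq2 1.42.0 size factors, total counts with and without the most abundant name, other count filters, a Pearson statistic, per-kilobase values and leaving out each replicate. Every member with a count was named except where an item is not reported here, and each list by its highest members; members and lists were chosen with earlier results of these data known.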

Additional observations from a re-analysis of the deposited data

How the results depend on the processing

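The order of HOXA first and HOXB second held in every library under each scaling and with each replicate left out. It also held by CPM in the coding and the non-coding subsets, and per kilobase over all names. Among non-coding names per kilobase it was reversed. There HOXB stood at 179.1, 92.95 and 126.3 CPM per kb in replicates 1, 2 and 3, against 60.45, 46.99 and 71.71 for HOXA. Leaving out HOXA10-AS was not among the alternatives. No paired analysis was possible because the libraries form a single group. The number of varying HOX names, 3 of 10 tested beside 1175 of 2564 over all names, was 6 of 10 with total counts as the scale (all names 1198 of 2564), 6 of 45 with no count filter (2914 of 14482) and 5 of 31 with at least 10 counts summed over the libraries (2734 of 7148). It lay between 2 and 3 when a replicate was left out, with 3 of 10 without replicate 1 (all names 786 of 2723), 2 of 12 without replicate 2 (263 of 2784) and 2 of 13 without replicate 3 (1093 of 3186), so the members' share lay above that of all names in some settings and below it in others; the cause of the first change was not tested, and the wider filters test more names. HOXB-AS3 and HOXA10-AS passed in all of these. With no filter HOXA9 and HOXC6, each with counts in 1 library, also passed (adjusted p = 0.00394 and 0.00439, edgeR), as did HOXD-AS2 (adjusted p = 0.0235, edgeR). Over all names the count without a replicate lay between 263 and 1093. Taking the most abundant name out of the denominator raised the summed CPM to 2109 in HOXA, 858 in HOXB, 161 in HOXC and 161 in HOXD, to 852 for coding names and to 2436 for non-coding names, since the denominator is smaller. Coding names alone gave 308, 212, 72.2 and 78.0 CPM for HOXA to HOXD, non-coding names alone 461, 54.5 and 48.0 CPM for HOXB to HOXD, and values per kb of exon were 31.2, 19.9, 3.81 and 5.92. The HOXC sum lay between 123 and 132 CPM without a replicate. The coding sum was 672 CPM per total counts and between 651 and 708 CPM without a replicate, chosen as an alternative after seeing the data. HOXC lay above HOXD in 66.7% of libraries, in 50% to 100% without a replicate and in 0% per kb. Names with at least 3 counts in every library numbered 23, against 35 with at least 1. Of 78 recomputed CPM values of 13 named members, 72 moved by less than the SD and 6 by more, all 6 without the most abundant name. Most members fell short of 10 counts in some library, so they were not tested in the main setting. Those with a count were tested with no count filter, and some of them also under the other wider filter or when a replicate was left out. The 9 names with no count were tested in no setting. Why so few records were assigned to genes was not tested.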
